A study of Mus musculus with 4 samples.

Results

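A set of 8 genes of leukotriene synthesis and sensing were followed in cultured group 2 innate lymphoid cells (ILC2), and 6 of them read higher when the transcription factor gene Ets1 was deleted. The members were taken by gene symbol: Pla2g4a, Alox5ap, Alox5, Ltc4s, Lta4h, Cysltr1, Cysltr2 and Ltb4r1. These are 8 of the 18194 genes that the array measures with probe sets of a single symbol, and 11 of its 45101 probe sets. ILC2 are lymphocytes of barrier tissues that carry no antigen receptor and release type 2 cytokines. The cells came from C57BL/6 mice, either Ets1-deleted animals or their littermate controls, and were cultured with IL-7 and IL-33 for 2 weeks on OP9-DL1 stroma, a mouse line that expresses the Notch ligand DL1. ICOS-positive cells were sorted, and total RNA was amplified and hybridised to Affymetrix arrays, 2 per genotype. All 4 samples share the culture, the cytokines and the ICOS sort. The sources used here give neither the way Ets1 was deleted nor the age of the mice. The labels do not say whether the 2 arrays of a group stand for separate mice or cultures; p-values therefore measure only the spread between these arrays, which may be technical.

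Leukotrienes are lipid mediators made from arachidonic acid. Cytosolic phospholipase A2 (Pla2g4a) frees arachidonic acid from membranes, and 5-lipoxygenase (Alox5), with its membrane partner FLAP (Alox5ap), turns it into leukotriene A4. Leukotriene C4 synthase (Ltc4s) then joins leukotriene A4 to glutathione and opens the cysteinyl leukotriene branch, while leukotriene A4 hydrolase (Lta4h) makes leukotriene B4. Cysltr1 and Cysltr2 encode receptors for cysteinyl leukotrienes and Ltb4r1 the high-affinity receptor for leukotriene B4. In allergic airway disease, cysteinyl leukotrienes from mast cells, eosinophils and macrophages act on ILC2, which carry Cysltr1 and answer with calcium influx and type 2 cytokine release.

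Array values are intensity units on a linear scale, and a difference is the log2 of Ets1-deleted minus that of control, ± its standard error from limma, with n = 2 arrays per group throughout. Array medians lay between 96.5 and 97.7 intensity units. A gene was tested where its brightest probe set averaged at least 97.44 intensity units over the 4 arrays, here called the dim limit, which left 10873 genes. Ets1 itself read 1272 and 1231 intensity units in the controls and 138 and 180 in the Ets1-deleted arrays, a difference of -2.99 ± 0.13. All 12 ILC2 markers measured, among them Gata3, Il7r, Rora and Il13, stood above the dim limit in both controls. That limit is low, since 10873 of 18194 genes reached it on average. Some markers of other cell types, such as Cd3g and S100a9, also passed it in both controls, so passing it does not identify the cells. Of all tested genes, 26.7% were called, that is, had a limma adjusted p under 0.05.

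Among the 7 tested members, 6 were higher in the Ets1-deleted arrays at an adjusted p of 0.05 in limma and 0 were lower, where 13.9% of all tested genes were higher and 12.8% lower. At an unadjusted p of 0.05 in limma the member counts were also 6 and 0. More of all tested genes pass that looser limit in each direction than the shares above, and their shares were not counted. The groups did not overlap for 6 of the 8 members, all of them with higher Ets1-deleted values. The share was 30.9% of tested genes and 26.4% of all genes, tested or not. Non-overlapping lower values were found for 0 members, against 31.7% of tested genes. With every gene tested whatever its brightness, 5 of the 8 members were higher and 0 lower, where 8.52% and 7.35% of 18194 genes were called. Among the tested members, Pla2g4a was below the dim limit in the controls and passed it only through its Ets1-deleted values, so the count over tested members is a description and not evidence of a shared change.

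**Figure D1:**
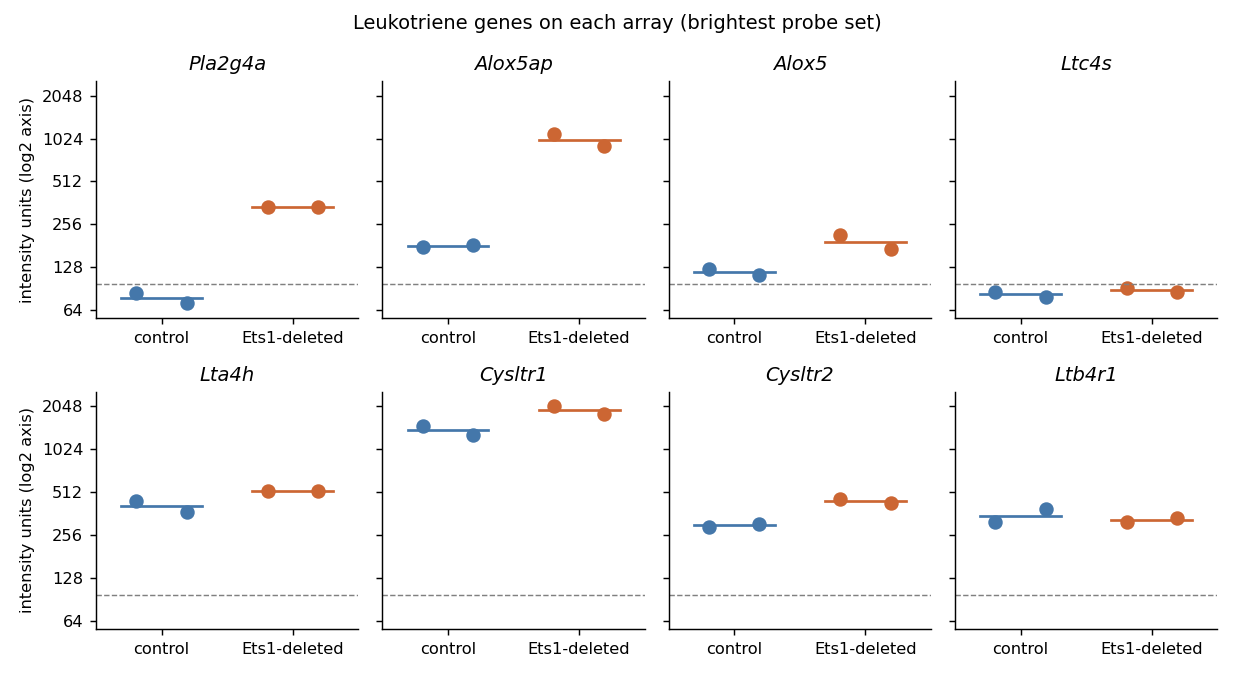
Intensity of each leukotriene gene on each array, on a log2 axis in intensity units, for 2 control arrays (blue) and 2 Ets1-deleted arrays (orange). Bars are group means of the log2 values and the dashed line is the dim limit of 97.44. Pla2g4a and Alox5ap stand furthest apart between the groups, while Ltc4s stays below the dim limit on every array and Ltb4r1 overlaps.

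Pla2g4a, Alox5 and Cysltr2, which rose with calls that held when any 1 array was left out and have an entry in the RefSeq promoter table, are shown together with Ltb4r1, which was tested and not called, and Ltc4s, too dim to be tested, by the 250 bases before their outermost transcription start, so that upstream regions of called and uncalled members can be read side by side. Coordinates are those of GRCm38.p6, on the minus strand for Pla2g4a at chr1:149961291-149961540, Alox5 at chr6:116461179-116461428, Cysltr2 at chr14:73049115-73049364 and Ltc4s at chr11:50238533-50238782, and on the plus strand for Ltb4r1 at chr14:55765712-55765961. Each is printed 5′ to 3′ on the gene's own strand, and capitals mark GGAA, the core of the sites that ETS factors bind, or its reverse complement TTCC.
Pla2g4a: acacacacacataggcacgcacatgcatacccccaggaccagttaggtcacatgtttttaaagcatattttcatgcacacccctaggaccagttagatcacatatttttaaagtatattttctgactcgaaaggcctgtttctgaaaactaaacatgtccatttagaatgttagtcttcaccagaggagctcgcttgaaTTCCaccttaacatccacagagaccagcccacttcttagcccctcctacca
Alox5: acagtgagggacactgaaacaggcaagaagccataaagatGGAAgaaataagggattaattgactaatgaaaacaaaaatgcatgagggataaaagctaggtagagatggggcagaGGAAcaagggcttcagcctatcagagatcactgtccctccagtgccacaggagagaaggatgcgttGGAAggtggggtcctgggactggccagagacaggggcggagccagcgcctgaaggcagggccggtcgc
Cysltr2: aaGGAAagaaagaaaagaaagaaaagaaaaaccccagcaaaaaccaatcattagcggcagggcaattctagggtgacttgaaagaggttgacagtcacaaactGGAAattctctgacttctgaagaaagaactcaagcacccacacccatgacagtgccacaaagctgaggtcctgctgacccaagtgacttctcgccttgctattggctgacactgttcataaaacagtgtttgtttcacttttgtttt
Ltb4r1: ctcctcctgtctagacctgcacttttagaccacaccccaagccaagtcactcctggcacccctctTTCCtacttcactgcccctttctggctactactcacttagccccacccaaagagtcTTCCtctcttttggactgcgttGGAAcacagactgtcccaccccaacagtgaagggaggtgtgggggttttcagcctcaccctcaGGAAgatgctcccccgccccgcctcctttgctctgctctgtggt
Ltc4s: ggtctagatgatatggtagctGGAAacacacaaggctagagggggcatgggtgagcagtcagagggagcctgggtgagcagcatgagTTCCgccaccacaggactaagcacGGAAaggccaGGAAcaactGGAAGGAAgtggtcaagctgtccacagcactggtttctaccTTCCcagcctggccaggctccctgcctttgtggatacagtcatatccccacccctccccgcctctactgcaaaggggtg
The Pla2g4a window held 1 such core, Cysltr2 2, Alox5 3, Ltb4r1 4 and Ltc4s 7, and that of Lta4h, called higher but not printed, held 6, so called and uncalled members overlap in this count. Over 32851 windows of this length, 93.4% held at least 1 on either strand and the median was 3, and 98.5% held 7 or fewer. The longer CCGGAA, an extended form of the core, was found in 3952 of all windows and in none of these 5, nor in that of Lta4h. The GC box GGGCGG, which Sp1 binds, lay in 32.7% of all windows and once each in those of Alox5, 35 bases before the start, and of Ltb4r1, 31 bases before it. Such matches are letters only. Alox5ap and Cysltr1 are named here without a sequence.

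Pla2g4a, the enzyme gene at the head of the pathway, went from near the floor of the array to a clear signal. Its intensities were 83.9 and 72.0 in the controls and 338 and 339 in the Ets1-deleted arrays. Both controls lay below the dim limit and both Ets1-deleted arrays well above it, with almost no spread between the latter. The difference was 2.12 ± 0.12, or 4.36-fold (limma, adjusted p = 9.99e-08), larger than that of 99.5% of tested genes. With each array's 5th percentile subtracted first and results under 16 set to 16, the difference was 3.74 (limma, adjusted p = 2.83e-05), above the 2.94 of Alox5ap in that setting. With controls this close to the floor, the size of that difference depends on the floor chosen.

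Alox5ap, which encodes the protein that presents arachidonic acid to 5-lipoxygenase, had the largest difference of the members on the deposited scale. Intensities in the controls were 177 and 182, against 1104 and 907 after Ets1 deletion. Even the lower Ets1-deleted array was far above both controls. The difference was 2.48 ± 0.12, or 5.57-fold (limma, adjusted p = 4.84e-08), with a 95% interval of 2.21 to 2.75. Leaving out any 1 array gave differences between 2.34 and 2.62. The tested genes whose centred log2 values over the 4 arrays lay closest to those of Alox5ap were Aqp9, which encodes a glycerol and water channel, Dpp4, a surface peptidase gene, and Basp1. Their Euclidean distances were 0.136, 0.143 and 0.173, and they differed by 2.55, 2.44 and 2.32.

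Alox5, the gene of the lipoxygenase itself, was dim but higher as well. Intensities in the controls were 125 and 113, against 217 and 171 after Ets1 deletion, so the groups did not overlap, though the Ets1-deleted arrays differed from each other more than the controls did. The difference was 0.69 ± 0.13, or 1.62-fold (limma, adjusted p = 0.002). It was 0.52 without Ets1-deleted 1 and 0.86 without Ets1-deleted 2, and 1.11 with the array floor subtracted, with the call kept in each case. Both partners of leukotriene A4 synthesis were thus higher. The test of a difference between the 2 changes was not run.

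The branch enzymes gave smaller values. Ltc4s read 86.2 and 78.4 intensity units in the controls and 91.6 and 85.3 in the Ets1-deleted arrays, below the dim limit on all 4, and was not among the tested genes. Its groups overlapped, and fitted without the filter its difference was 0.10 with a 95% interval of -0.11 to 0.32 (limma, adjusted p = 0.573). A dim probe set does not show that the transcript is absent. Lta4h read 445 and 372 intensity units in the controls and 524 and 519 in the Ets1-deleted arrays. Its groups did not overlap and its difference, 0.36 ± 0.12 or 1.28-fold, passed the threshold narrowly (limma, adjusted p = 0.0454). The Lta4h call was lost under 11 of 17 alternatives, among them leaving out control 2 (0.23, adjusted p = 0.408 in limma), Ets1-deleted 1 (0.35, adjusted p = 0.1) or Ets1-deleted 2 (0.36, adjusted p = 0.0826). Its other probe sets, both dimmer than the limit on average, differed by -0.001 and 0.016, and with the mean over all 3 the difference was 0.12 (limma, adjusted p = 0.299).

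**Figure D2:**
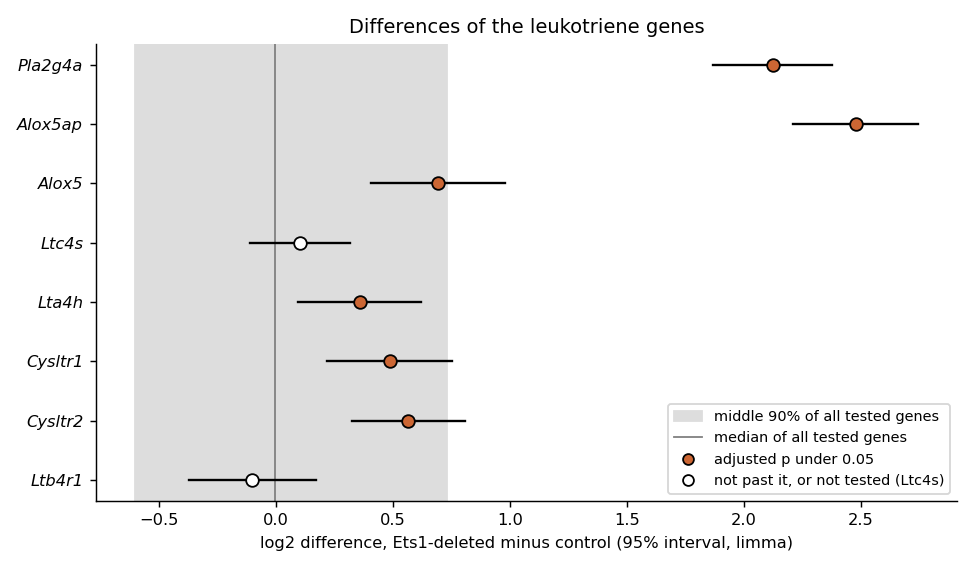
Log2 difference of each leukotriene gene, Ets1-deleted minus control, with its 95% interval from limma, beside the median and the middle 90% of all tested genes (grey). Pla2g4a (2.12) and Alox5ap (2.48) lie outside the grey band, the other members inside it; the interval of Ltc4s comes from the fit without a filter.

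Both cysteinyl leukotriene receptor genes were higher by modest amounts. Cysltr1, whose product is the target of montelukast, read 1492 and 1292 intensity units in the controls and 2079 and 1824 in the Ets1-deleted arrays. The lower Ets1-deleted array exceeded the higher control. The difference was 0.49 ± 0.12, or 1.40-fold (limma, adjusted p = 0.0108). This call was lost without control 2 (0.38, adjusted p = 0.0962 in limma) and without Ets1-deleted 1 (0.39, adjusted p = 0.0576). Its second probe set read 564 and 550 in the controls and 978 and 871 in the Ets1-deleted arrays, a difference of 0.73 ± 0.12 in the fit of single probe sets (limma, adjusted p = 0.000554).

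Cysltr2, the gene of the second cysteinyl leukotriene receptor, read 293 and 305 intensity units in the controls and 457 and 429 in the Ets1-deleted arrays. The arrays of each group lay close together and the groups were apart. Its difference was 0.57 ± 0.11, or 1.48-fold (limma, adjusted p = 0.00225), and the call held with each array left out. Ltb4r1, the leukotriene B4 receptor gene, read 316 and 388 in the controls and 317 and 338 in the Ets1-deleted arrays. Both Ets1-deleted values fell between the controls. The difference was -0.10 ± 0.13 (limma, adjusted p = 0.615), and its 95% interval of -0.37 to 0.17 leaves room for a small change in either direction. Whether the Cysltr and Ltb4r1 differences differ from each other was not tested.

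**Figure D3:**
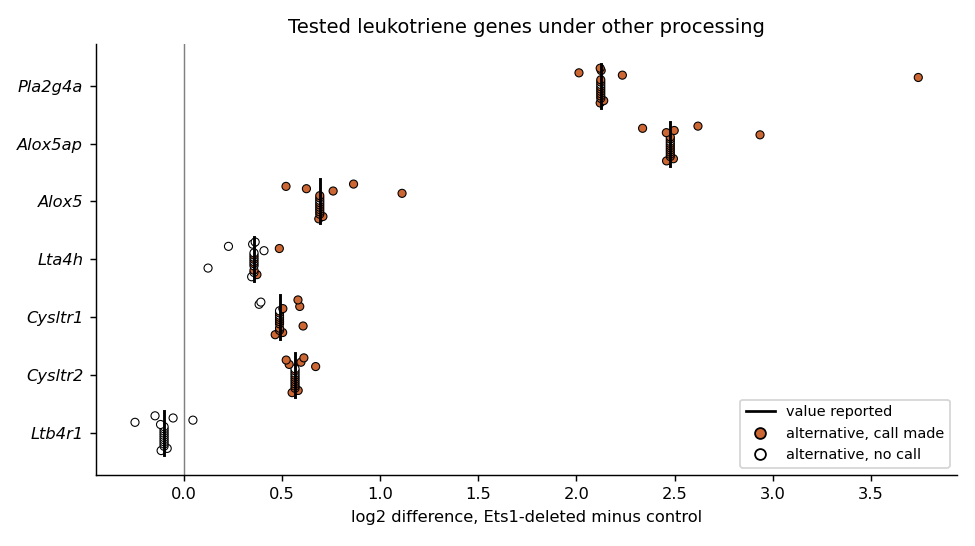
Log2 difference, Ets1-deleted minus control, of the 7 tested leukotriene genes under each alternative (points, filled where the call was made) beside the reported value (black bar). Alox5ap stays between 2.34 and 2.94 and Pla2g4a between 2.01 and 3.74, while most points of Lta4h are open and those of Ltb4r1, all open, lie between -0.25 and 0.05.

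Other genes of the pathway were read from lists of 87 genes on the array. Of these, 58 were tested and 34 passed the threshold in limma. Over all tested genes 26.7% were called, 13.9% higher and 12.8% lower, the shares to set beside each list count here and below. Of the 34 calls, 11 were lost when 1 or another array was left out. Around arachidonate release and its return to phospholipids, 5 of 14 tested genes rose and 2 fell, with a median of -0.009 against -0.004 over all tested genes. Fads2, a desaturase gene of polyunsaturated fatty acid synthesis, rose by 1.40 ± 0.11, although its bright probe set that moved least gave 0.08. Lpcat3, which puts arachidonate back into phospholipids, rose by 1.02 ± 0.13, and the acyl-CoA synthetase genes Acsl3 and Acsl4 by 0.80 ± 0.12 and 0.79 ± 0.14. Acsl4 prefers arachidonate. Its brightest probe set read 537 and 456 intensity units in the controls and 980 and 750 in the Ets1-deleted arrays.

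Among other lipoxygenases, relatives of Ltc4s and Alox5ap and partners of 5-lipoxygenase, 5 of 10 tested genes rose and 1 fell (median 0.48). Mgst2, a relative of Ltc4s that can also make leukotriene C4, read 252 and 273 intensity units in the controls and 550 and 476 in the Ets1-deleted arrays. Its groups were well apart, with a difference of 0.97 ± 0.12 (limma, adjusted p = 7.16e-05). Anxa1, whose product restrains phospholipase A2, rose by 1.32 ± 0.11, with 0.46 for its bright probe set that moved least. The p38 kinase gene Mapk14, whose product can activate cytosolic phospholipase A2, rose by 0.66 ± 0.11, and the least of its 5 bright probe sets gave 0.10. Ptges, a prostaglandin E synthase gene of the same protein family as Alox5ap, rose by 0.91 ± 0.11, with 0.27 for its other bright probe set. Rnpep, a peptidase gene related to Lta4h, rose by 0.56 ± 0.13. Cotl1, which encodes a protein that binds 5-lipoxygenase, fell by 0.47, a call lost without control 2 (-0.33, adjusted p = 0.17 in limma) or Ets1-deleted 1 (-0.35, adjusted p = 0.102), and its 6 bright probe sets ran from -0.47 to 0.04. Alox15 read 65.4 and 63.8 intensity units in the controls and 74.5 and 99.1 in the Ets1-deleted arrays and was not tested.

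In leukotriene export and breakdown, 2 of 7 tested genes rose and 3 fell (median -0.02). Ptgr1, whose product inactivates leukotriene B4, rose by 0.86 ± 0.12, and the exporter gene Abcc4 fell by 0.67 ± 0.12. Abcc1, the main exporter of leukotriene C4, rose by 0.42 ± 0.12 (limma, adjusted p = 0.0181), a call lost without control 2 (0.36, adjusted p = 0.127 in limma) or Ets1-deleted 2 (0.34, adjusted p = 0.0876). Of 7 related receptors of lipid mediators, among them Oxgr1, which responds to leukotriene E4, 0 reached the dim limit on average and none was tested. Oxgr1 lay between 62.8 and 65.1 intensity units on the 4 arrays.

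Downstream of the receptors, more genes fell than rose. Of 23 tested genes of G proteins, phospholipase C and their regulators, 2 rose and 10 fell, with a median of -0.27, where 13.9% of all tested genes were higher and 12.8% lower. The calls of Plcb3 and Rgs2 were lost when 1 or another array was left out. Genes that carry the signal and genes that restrain it were both among those that fell, and signalling itself was not measured. Gnaq, the G protein alpha subunit through which cysteinyl leukotriene receptors raise calcium, read 1530 and 1776 intensity units in the controls and 858 and 936 in the Ets1-deleted arrays. The control arrays were both higher, and the difference was -0.88 ± 0.12 (limma, adjusted p = 0.000161), with its 7 bright probe sets between -1.25 and -0.38. Plcb4, a phospholipase C gene that this subunit activates, fell from 725 and 904 to 215 and 210 intensity units, a difference of -1.93 ± 0.13. The receptor kinase gene Grk5 fell by 1.23 and Rgs1, a brake on G protein signalling, by 0.73. Arrb1, which encodes a beta-arrestin, rose by 0.99 ± 0.12.

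The prostanoid branch uses the same arachidonic acid. Of its 4 tested genes 3 rose and 1 fell. Ptgs2, which encodes cyclooxygenase 2, read 61.3 and 56.4 intensity units in the controls and 390 and 433 in the Ets1-deleted arrays, so like Pla2g4a it passed the dim limit only through the Ets1-deleted arrays. Its difference was 2.80 ± 0.12. Hpgds, the prostaglandin D synthase gene, fell from 535 and 502 to 209 and 211 intensity units, a difference of -1.30 ± 0.11.

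**Figure D4:**
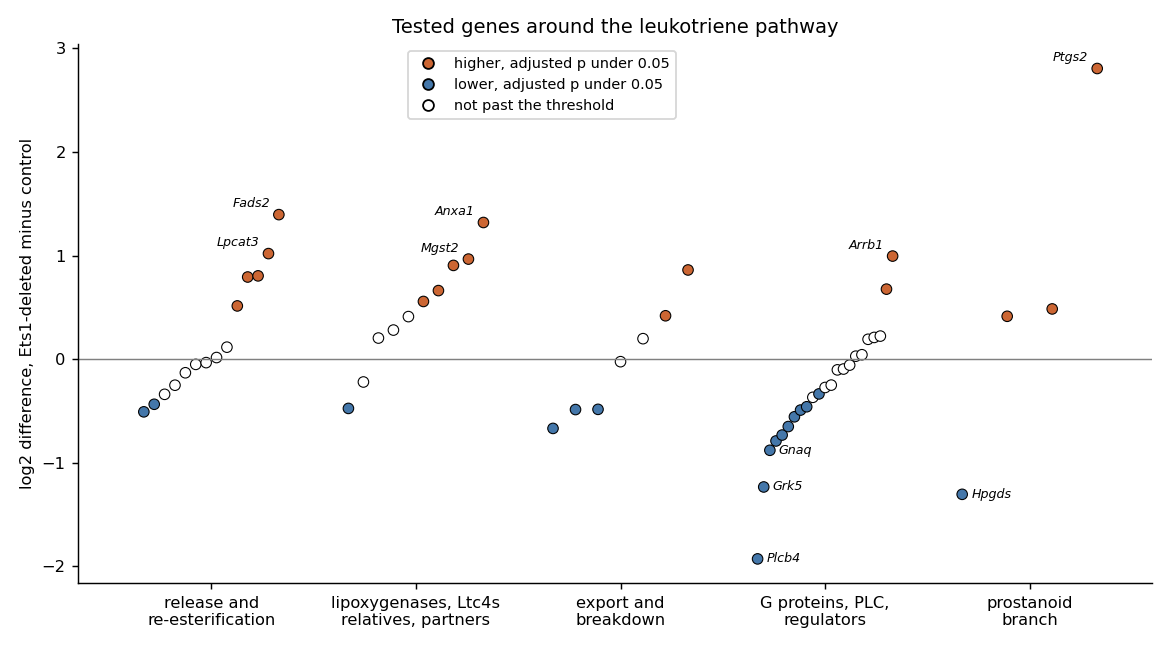
Log2 difference, Ets1-deleted minus control, of each tested gene in 5 pathway lists, filled where it passed an adjusted p of 0.05 in limma (orange higher, blue lower). Of the G protein and phospholipase C genes 10 fell and 2 rose, while 5 of 14 release genes and 5 of 10 lipoxygenase relatives and partners rose.

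Mast cells, macrophages, neutrophils and eosinophils are rich in leukotriene enzymes, and many of their markers were higher in the same arrays as Pla2g4a and Alox5ap. For the marker counts that follow, the shares over all tested genes were 13.9% higher and 12.8% lower. Of 11 tested mast cell and basophil markers 9 rose and 0 fell, though only 6 of the 11 stood above the dim limit in both controls. Their summed intensity over 15 genes was 2793 to 2809 in the controls and 4648 to 4878 in the Ets1-deleted arrays. Most of that gain was Cpa3, a mast cell protease gene, at 85.9 and 78.3 against 1497 and 1261 intensity units. Mcpt8, the brightest marker of this list in the controls, went the other way, at 1337 and 1385 against 1097 and 1193 intensity units. Its difference of -0.25 ± 0.11 did not pass the threshold (limma, adjusted p = 0.121). Fcer1a, the defining receptor chain of mast cells and basophils, and the tryptase gene Tpsab1 stayed below the dim limit on all 4 arrays. Of 12 tested macrophage, monocyte and neutrophil markers 11 rose and 0 fell, with 9 of the 12 above the dim limit in both controls. With every gene tested, 9 of the 18 measured were higher and 0 lower, where 8.52% and 7.35% of 18194 genes were called. The sum over these 18 genes was 2991 to 3303 in the controls and 5399 to 5551 in the Ets1-deleted arrays. Ctsg rose by 1.51 ± 0.12, Fcgr3 by 1.18 ± 0.11 and S100a9 by 1.14 ± 0.11, while Cd14, Cebpa and Fcgr1 were below the dim limit throughout. Of 6 eosinophil markers, Epx, Prg3, Ccr3 and Il5ra stayed below it on every array, and the summed level went from 422 to 428 up to 550 to 574. Prg2, too dim on average to be tested, read 60.2 and 65.3 intensity units in the controls and 124 and 148 in the Ets1-deleted arrays. Siglecf, the only eosinophil marker tested, rose by 0.41 ± 0.11, with both controls below the dim limit. The part of these cells in the leukotriene gene differences was not tested, and in a bulk sample more cells of a type and more RNA per cell cannot be told apart. Of 7 tested T cell markers 5 rose and 0 fell, with 4 of the 7 above the dim limit in both controls. Cd3e rose by 3.28 ± 0.14, Cd3d by 2.58 ± 0.11 and Cd28 by 2.18 ± 0.12. Cd247 rose by 3.11 ± 0.12, though its 4 bright probe sets ran from -0.21 to 3.11. Summed T cell markers were at 3461 to 3591 intensity units in the controls and 7077 to 7289 after Ets1 deletion, while Cd4, Cd8a and Cd5 stayed below the dim limit on all arrays. Of the 12 ILC2 markers 7 rose and 3 fell: Klrg1 (-1.60), Ptgdr2 (-0.45) and Icos (-0.38), whose product was the sorting marker. They summed to 21710 to 23930 intensity units in the controls and 27340 to 29790 in the Ets1-deleted arrays. Of 12 tested stromal markers 1 rose, Timp3 (2.55), and 2 fell, Pdgfrb (-0.85) and Cxcl12 (-0.41), with a median of -0.22. Of the 16 stromal markers measured, tested or not, 8 were lower in both Ets1-deleted arrays than in either control. The share over tested genes alone was 31.7%, and the share over all genes was not counted. The stromal sums overlapped at 3674 to 3951 and 3927 to 3940 intensity units. Without Timp3, left out after its values were seen, they were 3523 to 3824 in the controls and 3061 to 3176 in the Ets1-deleted arrays.

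**Figure D5:**
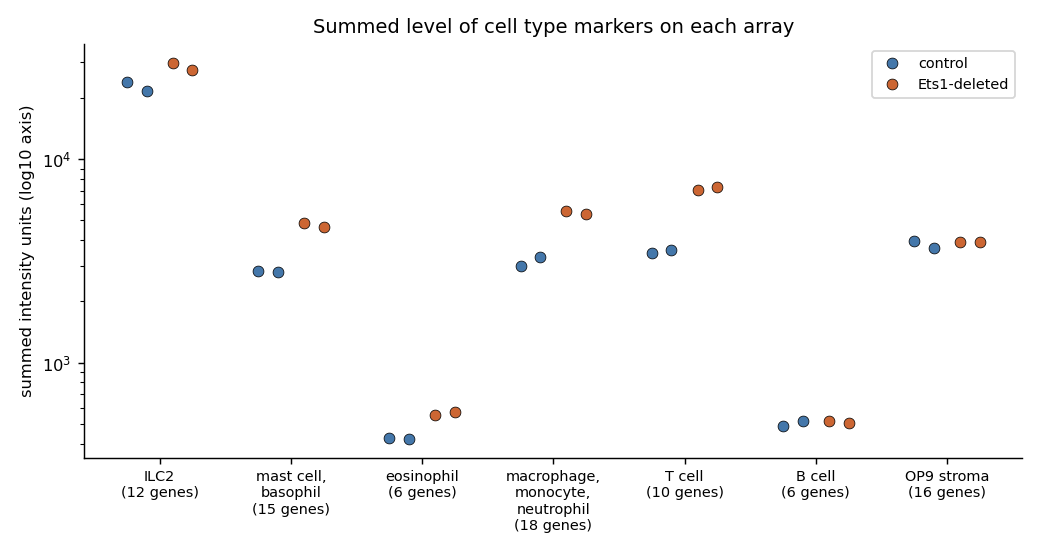
Summed intensity of the markers of each cell type on each array, on a log10 axis in intensity units, for 2 control (blue) and 2 Ets1-deleted (orange) arrays. ILC2, mast cell, eosinophil, myeloid and T cell sums are higher in both Ets1-deleted arrays. B cell and stromal sums overlap, the latter only with Timp3 in the sum.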

How the data were processed

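The deposited intensity of each probe set was made by the authors with RMA, per the submitters' processing notes, a method that subtracts background, quantile-normalizes the arrays and combines probes. Its software and version are not given. The range of 39.5 to 23291 was taken as a linear scale, an inference, and log2 was applied. Genes were named through the platform annotation. Each gene was represented by its brightest probe set by mean log2 value. Differences were fitted with limma 3.58.1 (lmFit, eBayes) in R 4.3.3 across 10873 genes, two-sided, with Benjamini-Hochberg adjustment, and the fit was checked on simulated data. Standard errors and p-values rest largely on a variance pooled over genes, with 9.75 prior degrees of freedom against 2 residual ones per gene. With 2 arrays a group, the smallest exact permutation p is 0.333. The number of arrays limits the precision. The genes followed, the lists, the cell type markers and the 17 alternatives were chosen with earlier results of these data known. Named were all 8 members, Ets1, called list genes, markers and the 3 genes closest to the member of smallest p. Alox15, Oxgr1, Mcpt8, Prg2 and the markers below the dim limit were named after their values were seen. Promoters came from the RefSeq table (6 of 8 members matched).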

Additional observations from a re-analysis of the deposited data

How the results depend on the processing

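Of the 7 tested leukotriene genes, Alox5ap, Pla2g4a and Alox5 lost their calls only with ordinary variances, where each gene's own spread has 2 residual degrees of freedom. With limma's unmoderated fit, that setting called 0 members in either direction, 0 pathway list genes either way, and 7 higher and 6 lower genes in all. At an unadjusted p of 0.05 in the same fit, 3 members were higher and 0 lower, and 11 pathway list genes were higher and 12 lower. Over all 10873 tested genes the unadjusted counts were 1349 higher and 1258 lower. A fold limit of 1.5 left 3 members higher, 8 pathway list genes lower, and 768 higher and 581 lower genes in all. With 1 row per probe set, 2550 higher and 2247 lower were counted, since more rows were tested. Leaving out 1 array gave 4 to 6 members higher; the lone array of a group is then assumed to vary like the other group. With the replicate number as a block, 6 members, 1689 higher and 1563 lower genes were called. Same-numbered arrays' deviations correlated at 0.167, and the labels name no pairing. Alox5 was not tested under the limit at the 70th percentile, nor was Pla2g4a. Signal near the array floor limits Pla2g4a, Alox5 and Ltc4s.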
